A study of Mus musculus with 9 samples.

Results

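The RNA of 10 transcription regulators of the naive state was followed in cultures of mouse embryonic stem cells: Esrrb, Klf2, Klf4, Klf5, Tfcp2l1, Tbx3, Nr5a2, Nr0b1, Zfp42 and Prdm14. They were chosen by symbol as known naive-state factors, by a rule that uses no measured value. Earlier results of these data were known when the choice was made. All 10 were found among the 52264 rows of the deposited count table, and all 10 were among the 15366 genes with enough reads to be tested. The data were 9 RNA sequencing libraries, 3 per group, from mouse embryonic stem cells whose genotype is labelled beta-catenin-/-, so that every group, controls included, carried that genotype. The cells were kept on feeder treated dishes and expanded as naive cells with 3 µM CHIR-99021, 1 µM PD03 (a MEK inhibitor) and 40 ng/ml LIF. The medium was then changed to N2B27 overnight, and the cells were left as untreated controls ("Ctr") or given BRD0705 or CHIR for 30 min. The labels do not give the dose in this last step or whether LIF was present overnight. They also do not give how many clones the line represents or whether replicates were separate cultures. The tests therefore measure only the spread between these libraries, which may be technical. As the controls are labelled untreated, effects of vehicle or handling cannot be told apart from those of an inhibitor in a difference from control.

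Naive pluripotency is held by a network of transcription factors in which most members bind each other's genes together with Oct4, Sox2 and Nanog. Different signals feed into different members: LIF acts through Stat3 on Klf4 and Tfcp2l1, while inhibition of the kinase GSK3 is known to act through beta-catenin, which lifts the repression of Esrrb, Klf2 and Tfcp2l1 by Tcf7l1. CHIR inhibits both GSK3 paralogs, and BRD0705 is an inhibitor selective for GSK3 alpha. The comparisons therefore ask how these factors' RNA stood shortly after GSK3 inhibition in cells labelled as lacking beta-catenin.

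Library totals ran from 17359422 to 20773337 counts. Ctnnb1, the gene for beta-catenin, had reads in all 9 libraries, at 303 to 371 CPM, which are counts scaled to a common library total. The table gives 1 count per gene, so it does not show whether a deleted stretch lacked reads. The 7 embryonic stem cell markers summed to 4055 to 4248 CPM with no group apart from the others, and none was at 0. The 12 fibroblast markers, which feeder cells would carry, summed to 5716 to 6458 CPM in controls, 6516 to 7019 with BRD0705 and 6373 to 7084 with CHIR. None of these was at 0, and all 12 had a positive difference under either inhibitor, but Col1a1 alone passed the test. In such bulk libraries fewer cells of a type and less RNA per cell cannot be told apart. Counts of every gene below are for the whole library, and the part that came from feeder cells was not measured.

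The promoters of Esrrb and Klf4 are shown because these were the members whose RNA passed the test between groups. Each is the 250 bases before a RefSeq transcript start in GRCm38.p6, written along the gene's strand. Capitals mark every match of CCNCNCCC on either strand, a core of the GC-rich box that KLF proteins bind.
Klf4, chr4:55532476-55532725, minus strand: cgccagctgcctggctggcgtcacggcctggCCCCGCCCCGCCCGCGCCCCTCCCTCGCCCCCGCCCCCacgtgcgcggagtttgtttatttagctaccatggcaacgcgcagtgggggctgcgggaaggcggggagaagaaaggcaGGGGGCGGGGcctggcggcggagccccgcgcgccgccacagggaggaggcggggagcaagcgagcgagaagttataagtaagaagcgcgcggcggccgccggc
Esrrb start 1, chr12:86360867-86361116, plus strand: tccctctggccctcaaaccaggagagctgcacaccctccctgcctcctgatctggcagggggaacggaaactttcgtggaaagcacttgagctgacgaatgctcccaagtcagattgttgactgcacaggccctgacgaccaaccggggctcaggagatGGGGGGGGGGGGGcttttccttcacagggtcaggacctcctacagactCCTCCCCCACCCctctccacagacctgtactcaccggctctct
Esrrb start 2, chr12:86421394-86421643, plus strand: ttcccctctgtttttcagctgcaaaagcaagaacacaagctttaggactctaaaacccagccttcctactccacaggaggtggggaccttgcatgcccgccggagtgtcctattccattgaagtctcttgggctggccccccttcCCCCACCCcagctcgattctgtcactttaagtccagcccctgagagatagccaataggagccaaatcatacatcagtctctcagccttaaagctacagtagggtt
The Klf4 window held 9 matches, the Esrrb windows 8 and 1, counting overlapping matches. Several of those in the first Esrrb window fall in 1 run of G. This motif was present in 45.9% of 32851 RefSeq promoter windows of the same length, so its presence is common. Neither CTTTGA nor CTTTGT, the core bound by TCF/LEF factors, occurred in these 3 windows on either strand, and 27.6% of all windows held one of them. The ERR element AAGGTCA, which Esrrb and Nr5a2 proteins bind, was likewise not in these windows, and 4.08% of all windows held it. Among the 7 members with a promoter in the RefSeq table, TCF/LEF letters were found in Nr0b1, with 2 matches. They were also found in 1 of the windows of Nr5a2, with 1 match. Bases outside these windows were not searched, so absence here does not show that a gene lacks such sites.

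Esrrb lies at chr12:86361117-86521628 on the plus strand and Klf4 at chr4:55527137-55532475 on the minus strand (RefSeq, GRCm38.p6). Tbx3 lies at chr5:119670534-119684724 on the plus strand. Tfcp2l1, Nr5a2 and Prdm14 lie on chromosome 1, Klf2 and Zfp42 on chromosome 8, Klf5 on chromosome 14 and Nr0b1 on chromosome X. The values are counts over each whole gene. Esrrb exons overlap 2 annotated genes on the other strand, and 1 small gene of the count table, Gm23497, overlaps Tfcp2l1 on the same strand.

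To compare levels between genes, CPM was divided by the length in kilobases of the gene's Ensembl canonical transcript. Which transcripts these cells used was not measured, so the order of the genes may depend on this choice. On this per-length scale Klf5, a KLF factor of naive cells and of trophectoderm, was the highest at 273 ± 18.2 CPM per kilobase (SD over all 9 libraries). Esrrb, an orphan nuclear receptor, followed at 226 ± 15.9, and Klf2 at 199.5 ± 9.68. The 3 thus stood at or above the 98.1st percentile of tested genes. Nr0b1 (Dax1), a nuclear receptor without a classical DNA-binding domain, was at 129 ± 8.16 CPM per kilobase. A second tier held Klf4 at 55.1 ± 6.07 and the T-box factor Tbx3 at 39.1 ± 2.55. Zfp42 (Rex1), a zinc finger protein widely used as a marker of the naive state, was at 25.4 ± 1.29, and the LIF-responsive factor Tfcp2l1 at 19.9 ± 0.567. The lowest levels were those of Nr5a2, a nuclear receptor that binds regulatory regions of the Oct4 gene, at 14.1 ± 1.02, and of Prdm14, a PR-domain repressor of lineage and DNA methylation genes, at 8.47 ± 0.536, the 61.7th percentile. Of the neighbours in this order, Esrrb and Klf2 alone had overlapping ranges over the 9 libraries, at 208 to 249 and 185.5 to 212 CPM per kilobase.

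**Figure D1:**
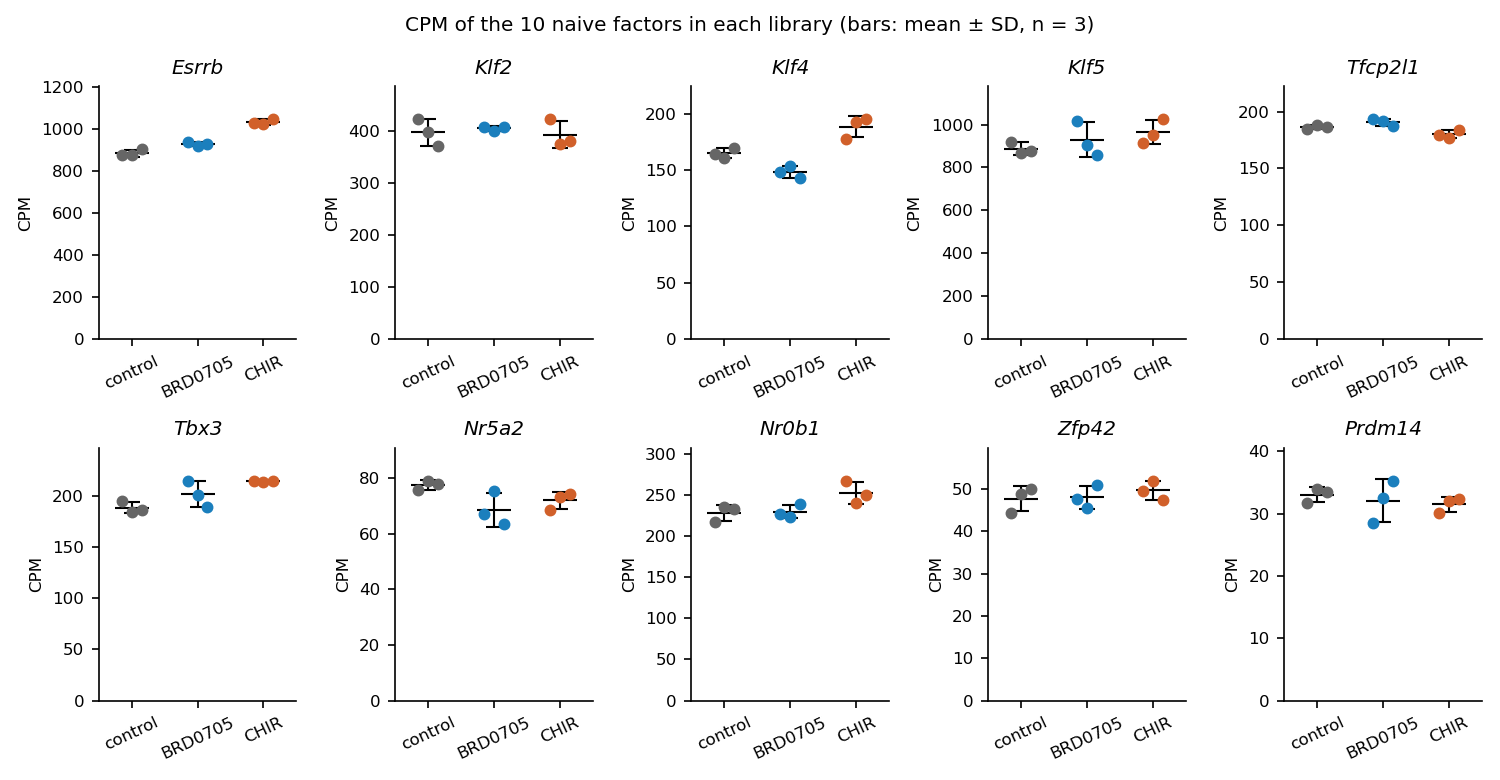
CPM of each of the 10 naive factors in every library, by group, with each point a library and the bar the group mean with its SD. Esrrb was highest in the 3 CHIR libraries, at 1023 to 1049 CPM, and Klf4 was lowest in the 3 BRD0705 libraries, at 143 to 153 CPM.

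After CHIR, Esrrb and Klf4 rose, by 16.6% and 14.4%, and the other 8 factors did not pass the test. Esrrb read 876, 878 and 905 CPM in controls, 938, 918 and 929 with BRD0705 and 1029, 1023 and 1049 with CHIR. The CHIR libraries were all above the other 6, and the 3 groups did not overlap. Against control, the Esrrb rise was 16.6% (95% interval 9.02 to 24.7), a log2 difference of 0.22 ± 0.05 (SE), with an adjusted p of 0.00734 in the quasi-likelihood test of edgeR with Benjamini-Hochberg adjustment. Klf4, a factor that LIF and Stat3 are known to drive, read 165, 160.4 and 169 CPM in controls, 149, 153 and 143 with BRD0705 and 178, 192 and 195 with CHIR. The CHIR libraries were the highest and the BRD0705 libraries the lowest, with controls between them and no overlap. Klf4 was 14.4% higher with CHIR than in control (95% interval 5.85 to 23.7), a log2 difference of 0.19 ± 0.05 (SE). The adjusted p in the same test was 0.0369.

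Both calls were higher, so 2 of 10 factors were called with CHIR, beside 6.30% of all tested genes in either direction with 2.52% higher and 3.78% lower. CPM ranges of CHIR and control did not overlap for 6 of 10 factors, 4 of them higher and 2 lower, beside 25.1% of all tested genes, 10.9% higher and 14.1% lower. The median absolute log2 difference was 0.11 over the 10 factors and 0.11 over all tested genes. The share of higher calls among all genes depended on the scaling. In edgeR, 387 of 968 calls were higher here, 252 of 954 with library totals alone, and 435 of 966 with DESeq2-type size factors. DESeq2 itself, which also differs in its test, gave 466 of 923. Esrrb was called higher under each of these scalings, while Klf4 kept its direction but lost its call with library totals alone (log2 difference 0.17, adjusted p by edgeR 0.0628).

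The Esrrb call with CHIR held without any 1 library. It was lost when the fibroblast score of each library entered the model, at a log2 difference of 0.24 and an adjusted p of 0.113 by edgeR. The part of the fibroblast markers in either result was not tested beyond this. The Klf4 call was less firm. It was lost without control library 1, 2 or 3, at adjusted p of 0.0678, 0.114 and 0.0624, without CHIR library 2 or 3, at 0.129 and 0.112, and with the fibroblast score, at 0.234, all by edgeR with all genes refitted. The log2 difference was 0.21 with the fibroblast score and 0.18 to 0.24 with 1 library left out, so these losses did not come with a much smaller difference. With library totals alone the call was also lost, as given above.

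The factors Tbx3, Nr0b1, Tfcp2l1 and Nr5a2 had ranges apart from control without passing the test. Tbx3 read 195, 184 and 186 CPM in controls, 215, 201 and 189 with BRD0705 and 215, 213 and 215 with CHIR. The CHIR libraries were all above controls and close together, while the BRD0705 libraries spread over both. Its log2 difference with CHIR was 0.18 ± 0.05 (SE), and its adjusted p by edgeR was 0.0507, close to the threshold of 0.05. It passed in 14 of 22 alternative analyses, with adjusted p from 0.0156 to 0.447. Exons of the noncoding genes Tbx3os1 and Tbx3os2 overlap Tbx3 on the other strand, and the use of strand in counting is not given in the sources used here.

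Nr0b1 read 217, 235 and 233 CPM in controls, 227, 223 and 239 with BRD0705 and 267, 240.2 and 249 with CHIR. Its 3 CHIR libraries were above all others, with a log2 difference from control of 0.14 ± 0.06 (SE) and an adjusted p by edgeR of 0.138. Tfcp2l1 was at 185, 188 and 186 CPM in controls and at 179, 177 and 183 with CHIR. The ranges lay apart by little, and the log2 difference was -0.05 (adjusted p by edgeR 0.612). Nr5a2 was at 75.6, 79.1 and 77.8 CPM in controls and at 68.6, 73.3 and 74.2 with CHIR, a log2 difference of -0.11 (adjusted p by edgeR 0.388).

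Klf5, Zfp42, Klf2 and Prdm14 overlapped between CHIR and control. Klf5 ranged from 866 to 921 CPM in controls and from 914 to 1026 with CHIR, with a log2 difference of 0.12 ± 0.06 (SE). Klf2, a KLF factor tied to the MEK and ERK input, had a log2 difference of -0.02 with a 95% interval of -0.14 to 0.11. The intervals of Zfp42 and Prdm14 were -0.08 to 0.19 and -0.23 to 0.09. The Klf5 interval, -0.01 to 0.25, reached the size of the Esrrb and Klf4 differences, while the upper bounds of Klf2 and Prdm14 lay below it.

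**Figure D2:**
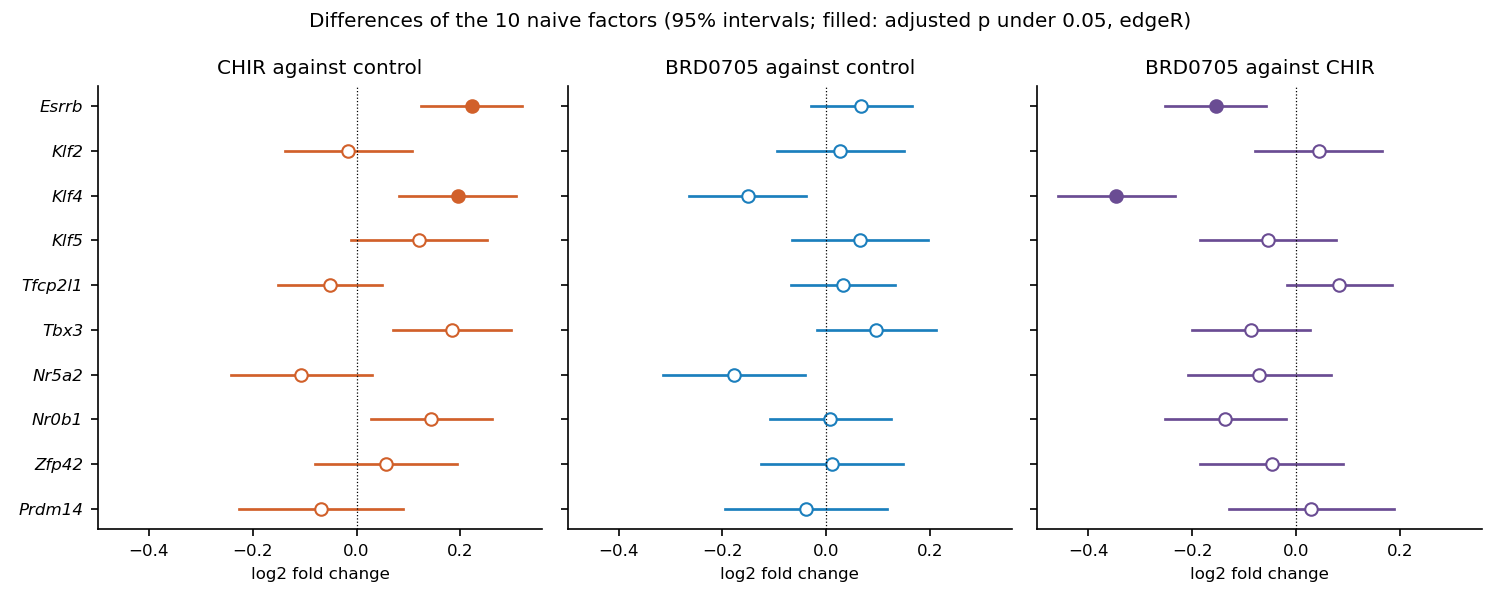
Log2 differences of the 10 naive factors in the 3 contrasts, with 95% intervals derived from the edgeR test. Filled points passed an adjusted p of 0.05. Esrrb and Klf4 passed for CHIR against control and for BRD0705 against CHIR, and no factor passed for BRD0705 against control.

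With BRD0705, none of the 10 factors passed the test against control. Among all tested genes 1.22% passed, 0.690% higher and 0.534% lower. Without adjustment, 2 of the factors and 15.9% of all tested genes had p under 0.05, and DESeq2 also called 0 factors. The 2 were Klf4 and Nr5a2, which were lower in all 3 BRD0705 libraries than in any control. Klf4 had a log2 difference of -0.15 ± 0.05 (SE), with a 95% interval of -0.26 to -0.04 and an adjusted p by edgeR of 0.171. Nr5a2 read 67.0, 75.4 and 63.35 CPM with BRD0705, a log2 difference of -0.18 ± 0.06 (SE), with an adjusted p by edgeR of 0.183.

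Esrrb was higher in all 3 BRD0705 libraries than in any control, by a log2 difference of 0.07 ± 0.05 (SE), with an adjusted p by edgeR of 0.517. This direction turned, to -0.00163, with the GC and length correction, which was chosen after seeing the data. The 3 factors with ranges apart, 1 higher and 2 lower, stand beside 20.2% of all tested genes, 9.83% higher and 10.4% lower. Ranges of the remaining 7 factors overlapped. Among them, Klf5 ran from 860.0 to 1019 CPM and Prdm14 from 28.5 to 35.3 CPM with BRD0705. The median absolute log2 difference of the 10 factors was 0.05, beside 0.11 over all tested genes. Both inhibitors were compared with the same 3 control libraries, so the 2 contrasts are not independent.

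BRD0705 and CHIR were then compared directly. The controls entered this contrast through the filter that set the tested genes, the scaling and the shared estimate of spread. Klf4 was 21.3% lower with BRD0705 than with CHIR (95% interval -27.3 to -14.9%), at means of 148 ± 5.02 and 188 ± 9.33 CPM (SD, n = 3 each). The log2 difference was -0.35 ± 0.05 (SE), with an adjusted p of 0.00066 in the quasi-likelihood test of edgeR with Benjamini-Hochberg adjustment. This call held in all 22 alternative analyses, with a highest adjusted p of 0.00754. Esrrb was 10.2% lower with BRD0705, at a log2 difference of -0.15 ± 0.05 (SE) and an adjusted p by edgeR of 0.0474. That call held in 8 of 22 alternatives and in 1 of the 9 that left out a library (without control 1), with adjusted p from 0.00527 to 0.129.

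The 2 factors called lower stand beside 7.77% of all tested genes in either direction, 4.80% higher and 2.97% lower. Ranges lay apart for 4 of 10 factors, 1 higher and 3 lower with BRD0705, beside 26.7% of all tested genes, 13.7% higher and 12.9% lower. Nr0b1 was lower with BRD0705 by a log2 difference of -0.14 ± 0.06 (SE) and Tfcp2l1 higher by 0.08 ± 0.05 (SE), with adjusted p by edgeR of 0.147 and 0.322. Tfcp2l1, at 193, 191 and 187 CPM with BRD0705, thus had its 3 CHIR libraries below both other groups. For the 6 factors whose ranges overlapped, the 95% intervals ran from -0.21 for Nr5a2 to 0.19 for Prdm14. Differences of the size seen in Klf4 lie outside them. Base composition of the libraries also differed between the inhibitor groups. The Spearman correlation of a gene's deviation with its GC content was 0.0541 to 0.260 in BRD0705 libraries, -0.116 to -0.0542 in CHIR libraries and -0.292 to 0.193 in controls. With a correction for GC content and length, chosen after seeing the data, Klf4 and Esrrb were still called between the inhibitors, at log2 differences of -0.38 and -0.21 and adjusted p by edgeR of 0.000318 and 0.00589. The part of base composition in these results was not tested beyond this.

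**Figure D3:**
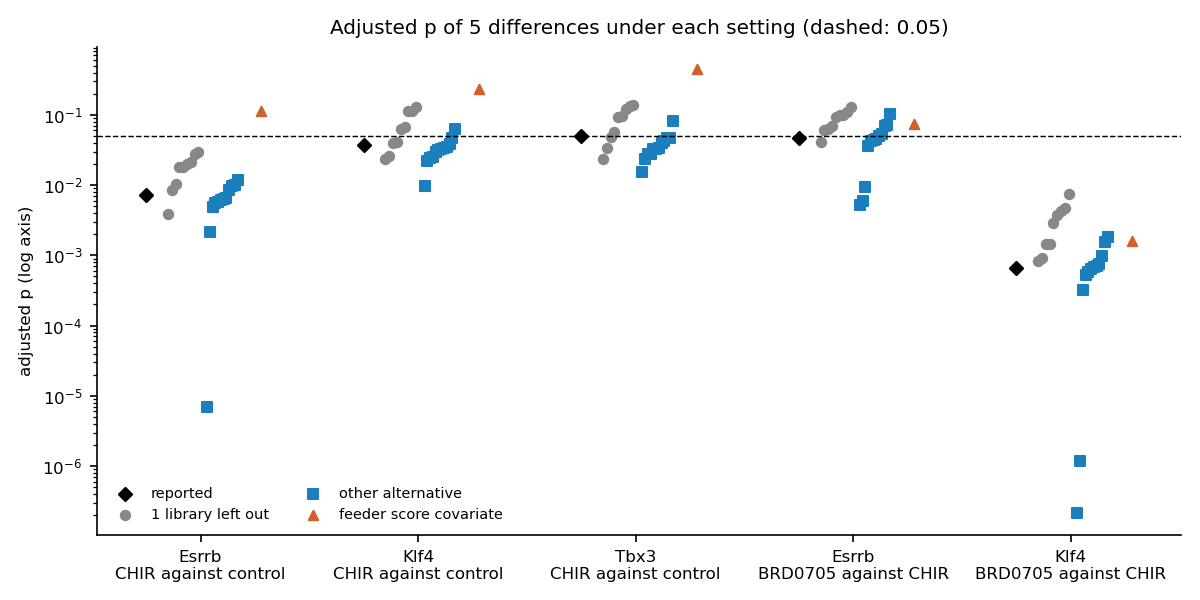
Adjusted p of 5 differences of Esrrb, Klf4 and Tbx3 as reported (diamonds), with 1 library left out (circles), with the fibroblast, or feeder, score (triangles) and in the other alternatives (squares), on a log axis with a line at 0.05. Klf4 in BRD0705 against CHIR stayed past the line in all 22 alternatives, while Klf4 in CHIR against control passed in 15 of 22.

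The genes around the 10 factors in the network mostly did not pass the test, and neither did most tested genes. For CHIR against control, BRD0705 against control and BRD0705 against CHIR, edgeR called 6.30%, 1.22% and 7.77% of all tested genes. An unadjusted p under 0.05 by edgeR was found for 20.5%, 15.9% and 22.5% of them. Few or no calls in lists this short therefore do not set these genes apart. The partners and inputs (Pou5f1, Sox2, Nanog, Sall4, Stat3, Ncoa3, Gbx2, Tfe3, Socs3 and Smad1) had 0 of 10 called in each of the 3 contrasts by edgeR, with 1, 3 and 2 genes at an unadjusted p under 0.05 for CHIR against control, BRD0705 against control and BRD0705 against CHIR. The factors that drive exit from the naive state (Tcf7l1, Zfp281, Zfp706, Flcn, Fnip1, Tsc2, Rbpj, Etv5 and Otx2) also had 0 of 9 called by edgeR in each contrast, with 2, 1 and 1 at an unadjusted p under 0.05. Of 10 other genes of the naive state, Tdgf1, a Nodal co-receptor, alone passed, and in the direct contrast alone. Tdgf1 read 401, 437 and 372 CPM with BRD0705 and 456, 473 and 467 with CHIR, a log2 difference of -0.21 with an adjusted p by edgeR of 0.0321, which held in 15 of 22 alternatives. The median absolute log2 differences of these 3 lists ran from 0.05 to 0.11, at or under the 0.11 to 0.12 of all tested genes.

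Several relatives of the 10 factors by protein family had larger differences than any of the 10 factors themselves. Of 30 tested relatives, 4 were called higher and 2 lower with CHIR, 1 higher and 1 lower with BRD0705, and 1 higher and 2 lower between BRD0705 and CHIR. Over all tested genes, 6.30%, 1.22% and 7.77% were called in these 3 contrasts. Most of the called relatives were KLF genes. Klf10, a TGF-beta-inducible repressor, read 112, 122 and 118 CPM in controls, 134, 142 and 132 with BRD0705 and 174, 173 and 172 with CHIR. The 3 groups were separate. With CHIR, Klf10 was higher than in control by a log2 difference of 0.56 ± 0.05 (SE), with an adjusted p by edgeR of 5.76e-06. With BRD0705 the difference from control was 0.22, with an adjusted p by edgeR of 0.0523, and Klf10 was lower with BRD0705 than with CHIR by -0.34 (adjusted p by edgeR 0.000575).

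Klf16 was higher with both inhibitors, at 77.7 to 80.3 CPM with BRD0705 and 86.6 to 91.5 with CHIR, beside 63.1 to 65.8 in controls. Both comparisons used the same controls, labelled untreated. The log2 differences were 0.30 (adjusted p by edgeR 0.0106) and 0.47 (5.31e-05). Klf6, an early-response KLF, fell with both, from 39.1 to 45.1 CPM in controls to 32.7 to 35.3 with BRD0705 and 30.7 to 32.1 with CHIR, at log2 differences of -0.32 (adjusted p by edgeR 0.0269) and -0.41 (0.0012). Klf11, the close paralog of Klf10, was at 32.9 to 33.6 CPM in controls, 31.3 to 33.2 with BRD0705 and 39.5 to 42.9 with CHIR. It rose with CHIR by 0.30 (adjusted p by edgeR 0.00545) and was lower with BRD0705 than with CHIR by -0.34 (adjusted p by edgeR 0.00229).

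The 15 tested KLF genes of the lists included the naive factors Klf2, Klf4 and Klf5. Against control, 4 were called higher and 1 lower with CHIR, beside 2.52% and 3.78% of all tested genes. With BRD0705, 1 was called higher and 1 lower, beside 0.690% and 0.534% of all tested genes. BRD0705 was called lower than CHIR for 3 (Klf4, Klf10 and Klf11), beside 2.97% of all tested genes. The calls of Klf10 and Klf16 with CHIR held in all 22 alternatives, and those of Klf6 and Klf11 in 21. With the fibroblast score the log2 differences of Klf6 and Klf11 were -0.35 and 0.36, with adjusted p by edgeR of 0.0954 and 0.0512. The BRD0705 calls were less firm: Klf16 held in 17 of 22 alternatives and Klf6 in 15, with adjusted p up to 0.559 and 0.667. Between the inhibitors, Klf10 and Klf11 held in all 22. Outside the KLF family, Ubp1, a relative of Tfcp2l1, rose with CHIR by 0.25 (adjusted p by edgeR 0.0133, held in 18 of 22 alternatives). Grhl2, a grainyhead factor of epithelia, had a log2 difference of -0.40 with CHIR (adjusted p by edgeR 0.0297, held in 16 of 22) and of 0.38 between BRD0705 and CHIR (0.0327, held in 17 of 22).

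**Figure D4:**
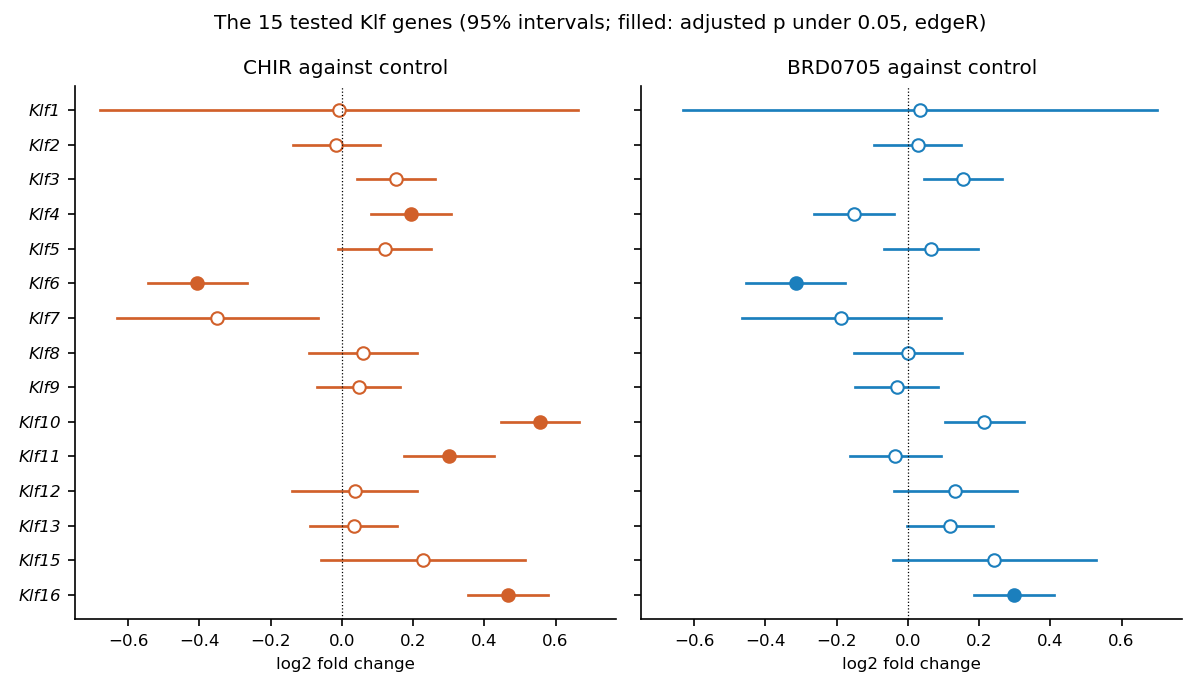
Log2 differences of the 15 tested KLF genes of the lists for CHIR and for BRD0705 against control, with 95% intervals and the called genes filled. Klf10 and Klf16 had the largest positive differences with CHIR and Klf6 the largest negative one, and the interval of Klf2 held 0 in both panels.

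Across the 9 libraries, the genes whose log2 CPM followed Esrrb most closely among 9563 candidates were Socs2 (Pearson r = 0.986), Ube2j2 (0.978) and Ppp1r15a (0.97). Those that followed Klf4 most closely were Rnf114 (0.971), Jpt2 (0.969) and Gm53 (0.969). Socs2 had log2 differences of 0.31 with CHIR, 0.08 with BRD0705 and -0.23 between the inhibitors, and Rnf114 of 0.24, -0.12 and -0.37. Since these genes were chosen for following the factor over the same libraries, their differences are a description. Among the 10 factors, Esrrb went along most with Tbx3 (r = 0.812) and Nr0b1 (0.771), and Klf4 ran most opposite to Tfcp2l1 (r = -0.8). These correlations describe 9 libraries that share 3 groups and their depth and base composition, and they were not tested.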

How the data were processed

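The authors deposited raw whole-number counts per gene symbol, and a table of normalized signal in which each library's raw counts had been divided by 1 constant, which was not used for the main results. Per the submitters' processing notes, RSEM and DESeq2 were used with mm10. Versions, filters and the use of strand are not given in the sources used here. The labels name both polyA RNA and a kit with ribosomal RNA depletion, and 2 extraction kits; which applies was not resolved.

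The library names in the labels gave group and replicate. The test was edgeR 4.0.16's 2-sided quasi-likelihood F test (R 4.3.3) after TMM scaling and filterByExpr (minimum count 10), with all 9 libraries in 1 fit of 3 group means (6 residual degrees of freedom). The threshold was an adjusted p of 0.05 (Benjamini-Hochberg, over all tested genes). CPM used TMM-scaled totals; log2 CPM a prior count of 2. The tests were tried on simulated data.

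Alternatives used DESeq2 1.42.0, limma 3.58.1 (voom), other scalings and filters, a replicate block, a fibroblast score, each library left out and, chosen after seeing the data, a GC and length correction. The 10 factors and all gene lists were chosen with earlier results of these data known. Of the listed genes, 1 is not reported here. All 10 factors are named; another listed gene is named with values where it passed in any contrast, and likeness names the 3 highest r among genes whose mean log2 CPM was 3 or more. Col1a1, Ctnnb1, the 4 neural markers and the highest and lowest markers of other lineages are named as marker or label checks. Transcript lengths were from GENCODE vM39 on GRCm39, used for lengths and GC only; positions and promoters were from RefSeq GRCm38.p6, with promoters for 7 of 10 factors.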

Additional observations from a re-analysis of the deposited data

How the results depend on the processing

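Precision was limited by 3 libraries per group. The 4 called differences of Esrrb and Klf4 kept their sign in all 22 alternatives. The counts of calls moved more. For CHIR against control, 968 genes and 2 factors passed; with the fibroblast score in edgeR 131 genes and 0 factors did (2020 genes and 3 factors at an unadjusted p under 0.05), with library totals alone 1 factor, and leaving out 1 library gave 514 (without CHIR 2) to 1070 genes (without BRD0705 3) and 1 to 3 factors. For BRD0705 against control, 188 genes passed; DESeq2 gave 477, no low-count filter 609, the GC and length correction 112, the same with the replicate block 101, the fibroblast score in edgeR 0 (1053 at an unadjusted p under 0.05), and leaving out 1 library 21 (without BRD0705 1) to 305 (without BRD0705 3). For BRD0705 against CHIR, 1194 genes passed, with 616 (without BRD0705 1) to 1313 when 1 library was left out. In that contrast 1 factor in place of 2 passed with the replicate block, a fit of only the 2 inhibitor groups, library totals alone, no low-count filter, a filter at a mean CPM of 1 or the fibroblast score, and 1 to 2 when 1 library was left out. Library totals alone gave 912 of 1151 higher calls there, beside 738 of 1194. The fibroblast score, a mean log2 CPM, was 7.434 to 7.495 in BRD0705 libraries and 7.15 to 7.347 in controls, without overlap. In CHIR libraries it was 7.277 to 7.54, which overlapped controls. The score and BRD0705 treatment thus cannot be fully told apart in that contrast. The cause was not tested in any of these changes in the counts of calls.

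With the replicate block, 973, 222 and 1177 genes passed in the 3 contrasts, and the Tbx3 call with CHIR was gained. Libraries with the same number did not deviate together (mean correlation -0.00119 over 9 pairs, -0.0897 to 0.0802), so the numbers were not taken as pairs.

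Sign changes were seen for uncalled values near 0. Under the GC and length correction, without and with the block, the BRD0705 against control differences were -0.00163 and -0.00126 for Esrrb, -0.0494 and -0.048 for Klf2 and -0.00924 and -0.00918 for Nr0b1, and those against CHIR were -0.0104 and -0.00904 for Klf2 and 0.00846 and 0.00736 for Zfp42. With the fibroblast score, Klf2 and Prdm14 were at -0.0324 and 0.0565 for BRD0705 against control and Prdm14 at 0.0161 for CHIR against control. Leaving out 1 library gave -0.0629 to 0.0368 for Klf2 with CHIR, and with BRD0705 -0.013 to 0.0758 for Klf2, -0.00409 to 0.127 for Klf5, -0.0255 to 0.0383 for Nr0b1, -0.0363 to 0.0518 for Zfp42 and -0.107 to 0.043 for Prdm14, and -0.0461 to 0.104 for Prdm14 between the inhibitors.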

Other observations

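Summed markers of other lineages stood at different levels, and most of each sum came from its highest marker. The 5 primed epiblast markers summed to 443 to 498 CPM and the 4 neural markers to 38.9 to 49.3 CPM over the 9 libraries. The 5 primitive endoderm markers summed to 10.3 to 14.3 CPM, and the 4 trophectoderm markers to 8.82 to 11.3 CPM. In these 4 lists the highest markers were Dnmt3b, Nes, Dab2 and Krt8, with means over all 9 libraries of 269, 38.0, 8.26 and 8.67 CPM. The lowest were Fgf5, Zic1, Foxa2 and Cdx2, at 2.06, 1.00, 0.011 and 0.104 CPM. The mesoderm and streak markers, of which 3 of 4 were in the counts, summed to 11.4 to 15.6 CPM. Eomes was the highest of these at 13.2 CPM and Mesp1 the lowest at 0.023 CPM. The sums therefore do not show that a whole lineage program was present. Of the 4 neural markers, Sox1, a neural plate factor, alone passed the test. It read 3.80, 4.12 and 4.88 CPM in controls, 4.07, 3.13 and 4.70 with BRD0705 and 2.84, 2.09 and 2.57 with CHIR. Its log2 difference was -0.76 for CHIR against control (adjusted p by edgeR 0.0203, past the threshold in 18 of 22 alternatives). For BRD0705 against CHIR it was 0.67 (adjusted p by edgeR 0.0383, in 13 of 22). Among all tested genes, 6.30% and 7.77% were called in these contrasts. Pax6, Nes and Zic1 were not called, with log2 differences of -0.01, -0.12 and 0.26 for CHIR against control. For BRD0705 against CHIR theirs were 0.15, 0.21 and 0.01.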
